A study of Sus scrofa with 24 samples.

Results

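The miRNAs ssc-miR-335, ssc-miR-34a and ssc-miR-34c, all of them linked to obesity, were followed through the differentiation of pig adipocytes from subcutaneous and intramuscular fat. They were taken by name from the deposited miRNA table, in which each appears once and without an arm suffix, so the set holds 3 of 1587 entries. All 3 passed the filter of a mean of at least 1 TPM that left 430 miRNAs for testing. Preadipocytes were isolated from the back subcutaneous fat (BF) and from the longissimus dorsi muscle (intramuscular, IMF) of Yorkshire piglets 6 days old, and small RNA was sequenced on day 0, day 2, day 4 and day 8 of differentiation. The 8 groups are BF-0d, BF-2d, BF-4d, BF-8d, IMF-0d, IMF-2d, IMF-4d and IMF-8d, with 3 libraries in each and 24 in all. Day 0 is before the adipogenic medium with isobutylmethylxanthine, dexamethasone and insulin, which was given for the first 2 days, followed by insulin alone for 2 days and then by growth medium. These are primary cultures for which the methods name no sorting step, there was no uninduced culture on later days, so time and treatment cannot be told apart, and the study does not link a library to a piglet.

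MiRNAs are short RNAs that pair with messenger RNAs, chiefly through the seed at bases 2 to 8, and lower their translation and stability. The miR-34 genes are textbook targets of the tumour suppressor p53, and miR-34a is known to repress the deacetylase SIRT1 and to be raised in adipose tissue of obese animals. MiR-335 lies within an intron of MEST, an imprinted gene whose expression goes with the expansion of fat tissue, and has itself been linked to obesity and lipid loading of adipocytes.

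The mature sequences are shown because they divide the set by seed. They are written 5′ to 3′ with the seed in capitals, as the study lists them, and each has 1 exact copy in the Sscrofa11.1 genome.
ssc-miR-335: tCAAGAGCaataacgaaaaatg
ssc-miR-34a: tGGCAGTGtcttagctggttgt
ssc-miR-34c: aGGCAGTGtagttagctgattgc
ssc-miR-34a and ssc-miR-34c have the same seed, and an alignment of both gave 18 identical bases in 23 positions, with a longest shared run of 8 bases that starts at base 2. ssc-miR-335 has another seed, and no other entry among the 958 with a listed sequence, nor among 369 annotated miRNA products of the RefSeq annotation, carries either of these seeds. All 3 come from the 5′ arm of their precursors. Reads of one member therefore cannot be taken for another by the perfect matches that were used for mapping.

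The members lie on different chromosomes. ssc-miR-335 is at chr18:18341624-18341645 on the minus strand (Sscrofa11.1), in the miRNA gene MIR335 within an intron of MEST on the same strand. ssc-miR-34a is at chr6:69603668-69603689 on the minus strand, between annotated genes. ssc-miR-34c is at chr9:39280290-39280312 on the plus strand, in MIR34C-1, which lies in an intron of C9H11orf88 on that strand and over an exon of BTG4 on the opposite strand.

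Values are in TPM, the name the authors give to reads per 1000000 miRNA reads of a library. The libraries held between 4954845 and 16863560 miRNA reads, and ssc-miR-21-5p alone took 27.9% to 60.5% of them, so each TPM value is a share of a total that a few miRNAs fill. ssc-miR-34a was the abundant member, with 874 to 4122 reads a library, a mean of 168.7 TPM over the 24 libraries and rank 91 of the 430 tested miRNAs. ssc-miR-335, with 32 to 294 reads, had a mean of 9.01 TPM and rank 231. ssc-miR-34c, with 28 to 105 reads, had a mean of 5.29 TPM and rank 269. At these depths counting error alone gives an SD close to 1 TPM for ssc-miR-335 (0.799 to 1.10 TPM by group) and 0.545 to 1.21 TPM for ssc-miR-34c. For ssc-miR-34c this is near the spread seen between libraries in many groups. For ssc-miR-335 the SD between libraries ran from 0.329 TPM in IMF-2d to 4.26 TPM in IMF-8d. For ssc-miR-34a the counting SD (3.03 to 7.55 TPM) was below the SD between libraries in each of the 8 groups. In 5 groups 1 library stood apart in the chi-square per degree of freedom between libraries, a measure that also grows with depth. Replicate 1 of BF-8d (734 and 1000, against 93.5 between the other two) and of IMF-8d (650 and 932, against 142) did so, and replicate 2 of BF-0d (349 and 479, against 56.6) and of IMF-0d (513 and 377, against 56.9). Replicate 3 of BF-2d (149 and 147, against 38.8) did so at lower values, and it is also the library with the low ssc-miR-335 level of that group.

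Adipocytes have no miRNA that defines them, so the label could be checked only through markers of other cells. White blood cell miRNAs (miR-142-3p, miR-142-5p, miR-223 and miR-150) summed to 0.201 to 2.60 TPM and red blood cell miRNAs (miR-451, miR-144 and miR-486) to 0.284 to 7.01 TPM. Of the skeletal muscle miRNAs, ssc-miR-1 was at 450.3 to 2324 TPM and ssc-miR-133a-3p at 7.53 to 30.3 TPM, and both had reads in all 24 libraries. ssc-miR-133b had no read in 2 libraries and at most 0.987 TPM, and ssc-miR-206 had none in 13 and at most 0.935 TPM. The endothelial miRNAs miR-126-3p and miR-126-5p summed to 26.4 to 90.9 TPM in the BF libraries and 18.2 to 40.4 TPM in the IMF libraries.

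ssc-miR-34a rose in both sources during differentiation and stood higher in subcutaneous than in intramuscular cells. In BF it was at 145, 120 and 141 TPM on day 0, at 138, 141 and 147 TPM on day 2, at 213, 234 and 264 TPM on day 4 and at 321, 397 and 406 TPM on day 8. Its level therefore lay flat to day 2 and the libraries of days 2, 4 and 8 did not overlap. In IMF it was at 82.0, 97.1 and 94.1 TPM on day 0, at 98.2, 114 and 104 TPM on day 2, at 123, 98.7 and 109 TPM on day 4 and at 166, 144 and 152 TPM on day 8. All IMF libraries of day 8 were above those of the other 3 days, and each day's 3 IMF libraries were below the 3 BF libraries of that day.

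**Figure D1:**
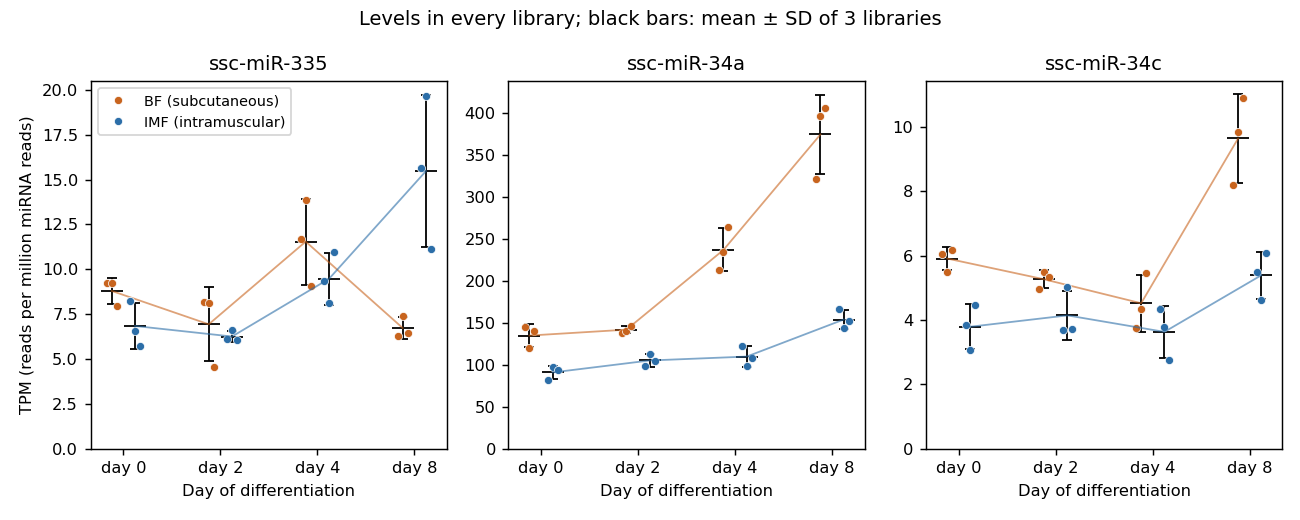
TPM (vertical axes, starting at 0) of ssc-miR-335, ssc-miR-34a and ssc-miR-34c against the day of differentiation, with 1 point for each of the 24 libraries, BF in orange and IMF in blue. Black bars give the mean ± SD of 3 libraries, and the lines join means: ssc-miR-34a climbed to 375 ± 46.7 TPM in BF-8d against 154 ± 11.4 TPM in IMF-8d, ssc-miR-335 was above BF in IMF-8d at 15.5 ± 4.26 TPM, and ssc-miR-34c was at 9.64 ± 1.37 TPM in BF-8d.

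ssc-miR-335 followed another course. In BF it was at 9.22, 9.22 and 7.95 TPM on day 0, at 8.17, 8.10 and 4.54 TPM on day 2, at 11.7, 13.9 and 9.06 TPM on day 4 and at 6.31, 7.42 and 6.46 TPM on day 8. The day 4 libraries were thus above those of days 2 and 8, with 1 of them inside the range of day 0. In IMF it was at 8.25, 6.56 and 5.71 TPM on day 0, at 6.09, 6.63 and 6.04 TPM on day 2, at 9.32, 8.11 and 11.0 TPM on day 4 and at 15.6, 19.7 and 11.1 TPM on day 8. The 3 IMF libraries of day 8 lay above every other IMF library, and they differed most among themselves.

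ssc-miR-34c stayed low in both sources except in subcutaneous cells on day 8. In BF it was at 6.06, 5.50 and 6.17 TPM on day 0, at 4.95, 5.50 and 5.34 TPM on day 2, at 3.75, 4.34 and 5.47 TPM on day 4 and at 8.18, 9.84 and 10.9 TPM on day 8. The 3 BF-8d libraries were above the other 21 libraries of the series. In IMF it was at 3.85, 3.06 and 4.46 TPM on day 0, at 3.70, 5.02 and 3.71 TPM on day 2, at 4.35, 3.80 and 2.74 TPM on day 4 and at 5.49, 4.61 and 6.07 TPM on day 8, where the last group overlapped only day 2.

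Ordered by group mean, ssc-miR-34a ran from IMF-0d (91.1 ± 8.01 TPM, SD, n = 3) through IMF-2d, IMF-4d, BF-0d, BF-2d and IMF-8d to BF-4d (237 ± 25.7 TPM, SD, n = 3) and BF-8d (375 ± 46.7 TPM, SD, n = 3). Neighbours in that order overlapped in their libraries except IMF-0d and IMF-2d, IMF-8d and BF-4d, and BF-4d and BF-8d. The order of ssc-miR-335 began with IMF-2d (6.26 ± 0.329 TPM), BF-8d, IMF-0d and BF-2d and ended with BF-4d (11.5 ± 2.40 TPM) and IMF-8d (15.5 ± 4.26 TPM), and every pair of neighbours overlapped. For ssc-miR-34c, IMF-4d was at the lower end (3.63 ± 0.816 TPM), and only the step from BF-0d (5.91 ± 0.356 TPM) to BF-8d (9.64 ± 1.37 TPM) separated neighbours.

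The comparison of day 0 with day 8 asks which miRNAs changed over the whole course of differentiation. The test was limma on log2(TPM + 1), and a miRNA was called when its Benjamini-Hochberg FDR was below 0.05 and its fold change above 1.5. In BF-0d vs BF-8d, where 42.8% of the tested miRNAs were called, 2 of the 3 members were called and both rose. ssc-miR-34a rose 2.78-fold in mean TPM (log2 fold change 1.46 ± 0.19 SE, adjusted p = 1.06e-05) and ranked 39 from the top of the 430 miRNAs by log2 fold change. ssc-miR-34c rose 1.63-fold (log2 fold change 0.62 ± 0.22 SE, limma adjusted p = 0.0344). ssc-miR-335 was not called, with a log2 fold change of -0.34 (limma adjusted p = 0.222).

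The call of ssc-miR-34c in BF-0d vs BF-8d was the weaker one. It was lost with edgeR (adjusted p = 0.0652) and DESeq2 (adjusted p = 0.115) on the whole reads, with the replicate number as a block (limma adjusted p = 0.0778), and when BF-0d replicate 1, 2 or 3 or BF-8d replicate 2 or 3 was left out (limma adjusted p of 0.0847, 0.0986, 0.101, 0.0551 and 0.0701). It was also lost after median-of-ratios scaling, which sets the libraries on the ratio of a typical miRNA (log2 fold change 0.45, limma adjusted p = 0.0816). ssc-miR-34a was called under each of its 14 alternatives, with log2 fold changes from 1.28 to 1.57.

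In IMF-0d vs IMF-8d, where 30.5% of the tested miRNAs were called, 2 of the 3 members were called and both rose, here ssc-miR-335 and ssc-miR-34a. ssc-miR-335 rose 2.26-fold in mean TPM, with a log2 fold change of 1.05 ± 0.23 (SE), an adjusted p of 0.0156 in limma and rank 30 from the top. ssc-miR-34a rose 1.69-fold, its log2 fold change being 0.75 ± 0.12 (SE) with a limma adjusted p of 0.00445. ssc-miR-34c was not called, at 0.42 ± 0.17 (SE) and an adjusted p of 0.0955 in limma. The call of ssc-miR-335 was lost by a small margin without IMF-0d replicate 3 (limma adjusted p = 0.0534), IMF-8d replicate 1 (0.0566) or IMF-8d replicate 2 (0.0510), and with no filter on low values (0.0772), while edgeR and DESeq2 kept it at adjusted p-values of 0.00103 and 3.21e-04.

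Whether the courses themselves differed between the sources was tested by the source-by-day interaction in one limma fit of all 24 libraries. The F test over the 4 days called 31.6% of the tested miRNAs and 2 of the 3 members, ssc-miR-335 (adjusted p = 0.0022) and ssc-miR-34a (adjusted p = 0.00899), while ssc-miR-34c had an adjusted p of 0.388. The net change from day 0 to day 8 gave the same split, with 20.7% of the tested miRNAs called. For ssc-miR-335 the change in IMF exceeded that in BF by 1.39 ± 0.30 (SE) on the log2 scale (adjusted p = 0.00171), that is, a rise in IMF beside a value below 0 in BF. For ssc-miR-34a the difference was -0.71 ± 0.22 (SE) with an adjusted p of 0.0199, the rise in BF being the greater. For ssc-miR-34c it was -0.20 ± 0.26 (SE) with an adjusted p of 0.615, so a difference between its courses was not detectable in these libraries.

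Both interaction results rested in part on single sets of libraries. Without the libraries numbered 2 in all groups, the net-change difference was 1.22 for ssc-miR-335 (limma adjusted p = 0.0568) and -0.48 for ssc-miR-34a (0.346), and without those numbered 3 it was -0.65 for ssc-miR-34a (0.156). The F test of ssc-miR-335 was past the threshold without the libraries numbered 3 (limma adjusted p = 0.00143) but not without those numbered 1 (0.0756) or 2 (0.138), and that of ssc-miR-34a was not past it without those numbered 2 (0.343) or 3 (0.149). After median-of-ratios scaling ssc-miR-335 kept its difference (1.53 ± 0.26 SE, limma adjusted p = 1.42e-04), while ssc-miR-34a had -0.55 ± 0.22 (SE) with an adjusted p of 0.0627 and an F test adjusted p of 0.0717. With no filter on low values the net change of ssc-miR-34a had an adjusted p of 0.0535 in limma.

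The comparison of BF with IMF on one day asks how the sources differ at the same stage. In BF-8d vs IMF-8d, where 37.2% of the tested miRNAs were called, all 3 members were called, and they moved in different directions. ssc-miR-335 was 2.30-fold higher in IMF-8d, its log2 fold change being 1.06 ± 0.23 (SE) with a limma adjusted p of 0.00221. ssc-miR-34a was 2.43-fold higher in BF-8d, its log2 fold change being -1.27 ± 0.16 (SE) with a limma adjusted p of 2.69e-05. ssc-miR-34c was 1.79-fold higher in BF-8d, with -0.73 ± 0.21 (SE) and an adjusted p of 0.0142 in limma. ssc-miR-335 ranked 42 from the highest and ssc-miR-34a 38 from the lowest of the 430 log2 fold changes. For each member the libraries of BF-8d and IMF-8d did not overlap, and the exact permutation test of 3 against 3 libraries gave 0.1, the smallest p it can give. Overlap was not counted over all 430 tested miRNAs, of which 219 had an unadjusted limma p under 0.05 here.

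The scale of the libraries matters for these source comparisons. The median log2 fold change of all tested miRNAs was -0.28 in BF-8d vs IMF-8d and -0.34 in BF-4d vs IMF-4d, and median-of-ratios scaling moved these medians by 0.25 and 0.34. Relative to the median, the day 8 differences were 1.34 for ssc-miR-335, -0.99 for ssc-miR-34a and -0.45 for ssc-miR-34c. Without BF-8d replicate 1, or without IMF-8d replicate 1, each of them standing apart from its group, all 3 members were called (1.02 and 1.04 for ssc-miR-335, -1.38 and -1.33 for ssc-miR-34a, -0.84 and -0.75 for ssc-miR-34c). After median-of-ratios scaling ssc-miR-335 (1.35 ± 0.22 SE, limma adjusted p = 5.25e-04) and ssc-miR-34a (-0.95 ± 0.12 SE, 1.28e-04) were called, and ssc-miR-34c was not (-0.45 ± 0.18 SE, 0.0795). ssc-miR-34c was not called by edgeR (adjusted p = 0.111) or DESeq2 (0.135) either, nor by limma without IMF-8d replicate 2 (0.0975).

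**Figure D2:**
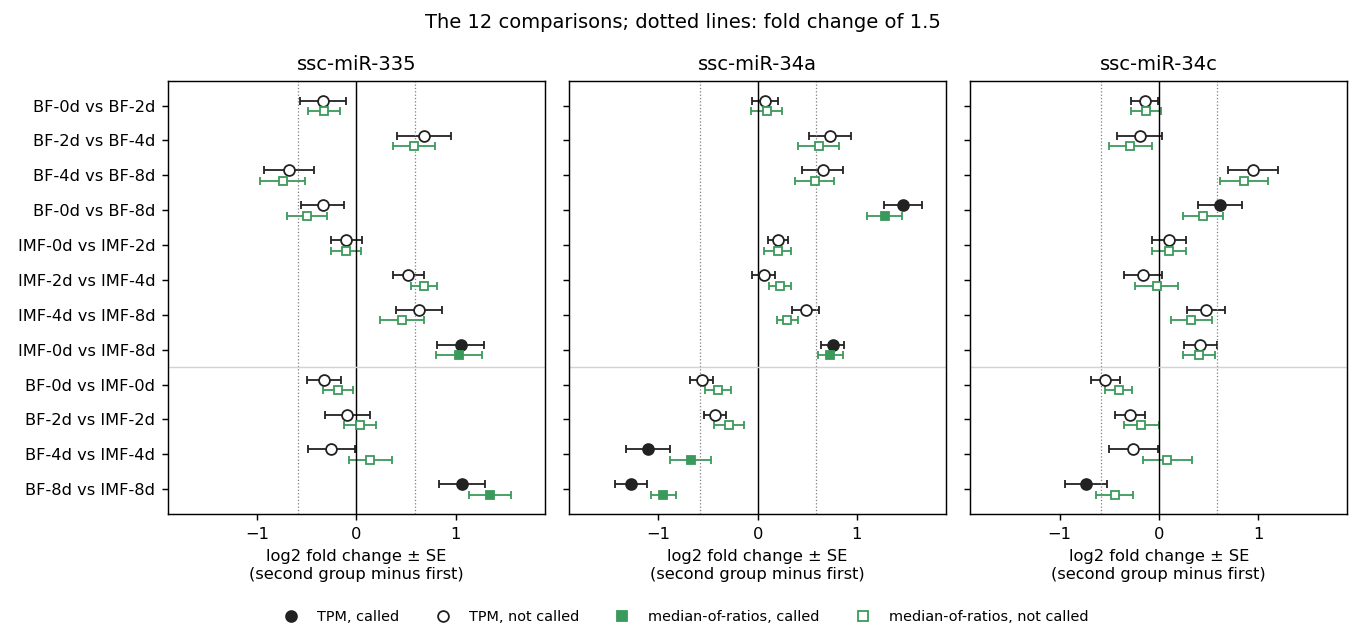
Log2 fold changes ± SE (horizontal axes, second group minus first) of each member in the 12 comparisons, on log2(TPM + 1) as black circles and after median-of-ratios scaling as green squares, filled where called. The day 8 comparison of sources is the one in which all 3 members were called on TPM, with ssc-miR-335 at 1.06, ssc-miR-34a at -1.27 and ssc-miR-34c at -0.73.

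On day 4, when 36.3% of the tested miRNAs were called in BF-4d vs IMF-4d, ssc-miR-34a was the 1 member of 3 called. Its mean TPM was 2.16-fold higher in BF-4d, its log2 fold change being -1.10 ± 0.22 (SE) with a limma adjusted p of 0.0023, and it was called under each of its 14 alternatives, with values from -1.18 to -0.65 and of -0.68 after median-of-ratios scaling. ssc-miR-335 (-0.25 ± 0.24 SE) and ssc-miR-34c (-0.26 ± 0.25 SE) were not called, and both values were above 0 after median-of-ratios scaling (0.14 and 0.09).

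On day 0, before induction, 29.3% of the tested miRNAs were called in BF-0d vs IMF-0d and 0 of 3 members. ssc-miR-34a (-0.56 ± 0.12 SE, adjusted p = 0.0176) and ssc-miR-34c (-0.54 ± 0.15 SE, adjusted p = 0.0424) passed the FDR in limma but not the fold change of 1.5 on the log2(TPM + 1) scale, on mean TPM being 1.48-fold and 1.56-fold higher in BF-0d. With the replicate number as a block, which pairs these libraries, ssc-miR-34c did not pass the FDR (limma adjusted p = 0.0503) and ssc-miR-34a did (0.0426). After median-of-ratios scaling neither passed it (-0.40 with a limma adjusted p of 0.0746 for ssc-miR-34a, -0.40 with 0.0812 for ssc-miR-34c), and with edgeR ssc-miR-34a was at -0.32 (adjusted p = 0.206). In limma 2 members had an unadjusted p under 0.05, beside 187 of the 430 tested miRNAs. Without IMF-0d replicate 3 both were called (-0.59 and -0.64, limma adjusted p of 0.0444 and 0.0448), and ssc-miR-34a was called also without BF-0d replicate 2 (0.0222) or IMF-0d replicate 2 (0.0338). On day 2, 12.3% of the tested miRNAs were called in BF-2d vs IMF-2d and again 0 of 3 members, with ssc-miR-34a at -0.43 ± 0.11 (SE) and an adjusted p of 0.0529 in limma. It was the 1 member with an unadjusted p under 0.05, beside 125 of the 430 tested miRNAs. edgeR and DESeq2 called 0 members on both days, while of the 430 miRNAs they called 113 and 110 on day 0 and 68 and 65 on day 2. With edgeR the day 2 value of ssc-miR-34a was -0.26 (adjusted p = 0.312).

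Between adjacent days 0 of 3 members were called in all 6 comparisons by limma, edgeR or DESeq2. The tested miRNAs called by limma were 4.19% in BF-0d vs BF-2d, 6.05% in BF-2d vs BF-4d and 3.02% in BF-4d vs BF-8d, and 0% in IMF-0d vs IMF-2d, 0% in IMF-2d vs IMF-4d and 13% in IMF-4d vs IMF-8d. In the IMF comparisons without a limma call, 68 and 65 miRNAs had an unadjusted p under 0.05, edgeR called 7 and 1, and DESeq2 called 9 and 2. Over all tested miRNAs, an unadjusted limma p under 0.05 was found for 104, 117 and 99 in the BF comparisons. In the IMF comparisons it was found for 68, 65 and 139. Of the members, 0, 2 and 3 had such a p in the BF comparisons and 0, 1 and 3 in the IMF comparisons.

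All of these lay in the steps after day 2. In BF-4d vs BF-8d the log2 fold change was 0.95 ± 0.25 (SE) for ssc-miR-34c (limma adjusted p = 0.0677), 0.66 ± 0.21 (SE) for ssc-miR-34a (0.110) and -0.68 ± 0.25 (SE) for ssc-miR-335 (0.151). The libraries of both days did not overlap for any of them, and overlap was not counted over all 430 tested miRNAs. In BF-2d vs BF-4d it was 0.73 ± 0.21 (SE) for ssc-miR-34a (limma adjusted p = 0.0671), 0.68 ± 0.27 (SE) for ssc-miR-335 (0.130) and -0.19 for ssc-miR-34c (0.632), and ssc-miR-34a was called without BF-4d replicate 1 (0.80, limma adjusted p = 0.0382). Without BF-2d replicate 3 the value of ssc-miR-335 was 0.44 (limma adjusted p = 0.285) in that step and -0.10 rather than -0.34 in BF-0d vs BF-2d. One fit of all 24 libraries, which takes its error from more libraries, called ssc-miR-34a (limma adjusted p = 0.00126) and ssc-miR-335 (0.0209) in BF-2d vs BF-4d, all 3 in BF-4d vs BF-8d (0.00358 for ssc-miR-34a, 0.0258 for ssc-miR-335 and 6.1e-04 for ssc-miR-34c) and ssc-miR-335 in IMF-4d vs IMF-8d (0.0437). That fit also called more of all 430 miRNAs, 104, 81 and 69 in these comparisons against 26, 13 and 56 before, so the gain was not particular to the members. In IMF-2d vs IMF-4d ssc-miR-335 had 0.52 ± 0.15 (SE) with a limma adjusted p of 0.229. In IMF-4d vs IMF-8d the log2 fold changes were 0.63 for ssc-miR-335, 0.49 for ssc-miR-34a and 0.47 for ssc-miR-34c, with limma adjusted p-values of 0.126, 0.0552 and 0.138, beside a median of 0.18 over all tested miRNAs. There ssc-miR-34a had 0.30 after median-of-ratios scaling (limma adjusted p = 0.114), 0.26 with edgeR (0.235) and 0.25 with DESeq2 (0.276).

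**Figure D3:**
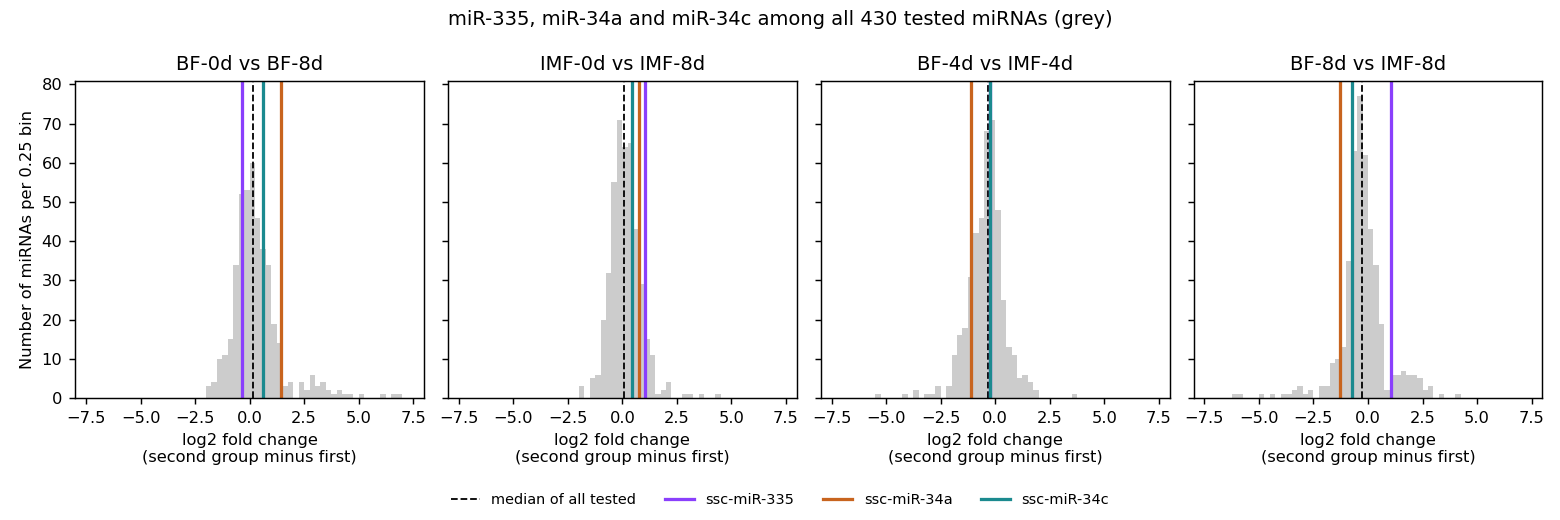
Histograms of the log2 fold changes (horizontal axes, second group minus first) of all 430 tested miRNAs in 4 comparisons, with the number of miRNAs per 0.25 bin on the vertical axes, the median of all as a dashed line and the members as coloured lines. In BF-8d vs IMF-8d the median was -0.28, with ssc-miR-34a (-1.27) and ssc-miR-34c (-0.73) below it and ssc-miR-335 (1.06) above it.

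Since ssc-miR-34a and ssc-miR-34c share a seed, their summed TPM gives the amount of that seed in a library. The sum was 141 ± 13.7 TPM (SD, n = 3) in BF-0d, 147 ± 4.51 TPM in BF-2d, 242 ± 26.6 TPM in BF-4d and 384 ± 48.1 TPM in BF-8d. In IMF it was 94.9 ± 7.86 TPM on day 0, 109 ± 8.47 TPM on day 2, 114 ± 12.4 TPM on day 4 and 160 ± 11.8 TPM on day 8. The sum was higher in BF than in IMF in all 3 libraries against all 3 on each of the 4 days, and IMF lay lower by 109 TPM as a mean over the days. Since ssc-miR-34a makes up most of the sum and was itself separated on each day, the sum adds no independent evidence. After median-of-ratios scaling the mean difference was -72.9. Single comparisons of 3 against 3 libraries could not go below an exact permutation p of 0.1, and none of the 12 was under 0.12 after Benjamini-Hochberg adjustment over them.

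ssc-miR-34c made up a small share of that sum. The share was 4.20% ± 0.187 (SD, n = 3) in BF-0d, 3.57% ± 0.161 in BF-2d, 1.86% ± 0.155 in BF-4d and 2.51% ± 0.0979 in BF-8d, with no overlap between the libraries of any adjacent pair of these days. Each of these comparisons had an exact permutation p of 0.1, the smallest possible, and 0.2 after adjustment over the 12, so no single step passed the test. The counting SD of ssc-miR-34c was 0.653, 0.739, 0.680 and 1.21 TPM in these BF groups, at means of 5.91, 5.26, 4.52 and 9.64 TPM. A counting error of the share was not computed. The low share on day 4 came with 237 TPM of ssc-miR-34a and 4.52 TPM of ssc-miR-34c. In IMF the share was 4.02% ± 0.837 (SD, n = 3), 3.77% ± 0.418, 3.20% ± 0.652 and 3.38% ± 0.393 on days 0, 2, 4 and 8, and adjacent days overlapped. A share within a library does not depend on how the libraries are scaled, but adaptor ligation differs among miRNAs, so it is read across groups and not as a ratio of molecules.

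Over the 4 days the share was higher in IMF by a mean of 0.557 percentage points (exact permutation p within days = 0.0184). On day 4 it was 1.72 times and on day 8 1.35 times that in BF, without overlap, each with an exact permutation p of 0.1 and 0.2 after Benjamini-Hochberg adjustment over 12 comparisons, while on days 0 and 2 the libraries overlapped. The mean difference was 0.455 without the libraries numbered 1 (exact permutation p = 0.174) and 0.597 without those numbered 3 (0.0941).

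**Figure D4:**
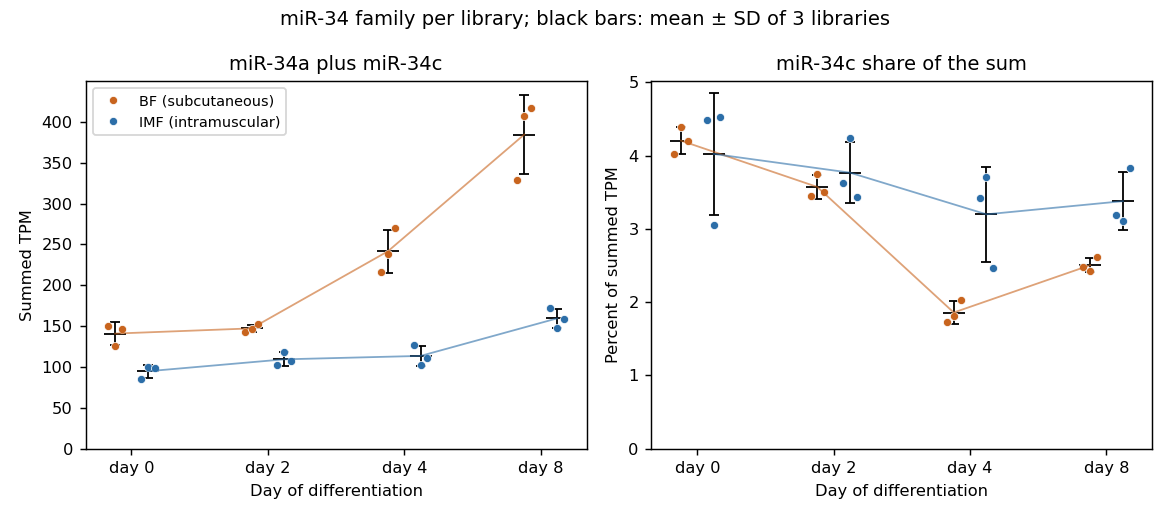
Summed TPM of ssc-miR-34a and ssc-miR-34c (left) and the percent of that sum from ssc-miR-34c (right) against the day of differentiation, 1 point per library, BF in orange and IMF in blue, with black bars for the mean ± SD of 3 libraries and both vertical axes from 0. The sum reached 384 TPM in BF-8d and 160 TPM in IMF-8d, and the share was at 1.86% in BF-4d against 3.20% in IMF-4d.

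Markers of other cells moved in some of the comparisons in which members were called. Of the 2 tested endothelial miRNAs, 1 was called lower in IMF-4d than in BF-4d and 2 in IMF-8d than in BF-8d, as ssc-miR-34a was, while in IMF-0d vs IMF-8d limma called 0 and their median log2 fold change was 0.02. In BF-0d vs BF-8d 1 was called higher, and 0 after median-of-ratios scaling. With that scaling the calls between the sources remained, 1 on day 4 and 2 on day 8, at median log2 fold changes of -0.75 and -0.97. The summed level of the endothelial miRNAs was 51.2 to 90.9 TPM in BF-8d and 24.6 to 34.8 TPM in IMF-8d, and their part in the result was not tested. In bulk RNA a change in the amount per cell and a change in the number of cells that carry it cannot be told apart. Of the red blood cell miRNAs ssc-miR-486 alone was tested. It was called higher in IMF-8d than in BF-8d (1.10) and in IMF-0d (2.01), as ssc-miR-335 was, but also higher in BF-8d than in BF-0d (1.30), where ssc-miR-335 was at -0.34, and lower in IMF-4d than in BF-4d (-0.94), where ssc-miR-335 was not called. After median-of-ratios scaling this last call was lost (-0.78) and the others remained (1.33, 2.02 and 1.14). The summed red blood cell level was 6.48 to 7.01 TPM in IMF-8d and 1.94 to 3.35 TPM in BF-8d, and its part was not tested either. Of the 2 tested muscle miRNAs 2 were called higher in BF-8d than in BF-0d (median 1.17) and 1 in IMF-8d than in IMF-0d (median 0.40), the same counts after median-of-ratios scaling, and their part was not tested. In BF-8d vs IMF-8d limma called 0 of them, at summed levels of 1315 to 2348 TPM in BF-8d and 971 to 1620 TPM in IMF-8d.

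As a description, the pattern of each member over the 24 libraries was set beside that of all other tested miRNAs by Spearman's rho of TPM. These libraries share their groups, and the values of one library share a total. ssc-miR-34a was most like ssc-miR-199b-5p (rho 0.925), ssc-miR-148b-3p (0.918) and ssc-miR-30b-5p (0.916), of which ssc-miR-30b-5p went from 46.7 to 366 TPM between BF-0d and BF-8d and from 27.3 to 191 TPM between IMF-0d and IMF-8d. Its most opposite pattern was that of ssc-miR-7857-3p (rho -0.841), at 29.7 TPM in BF-0d, 38.2 TPM in IMF-0d and 10.3 TPM in both groups of day 8. After median-of-ratios scaling these 4 values were 0.897, 0.819, 0.901 and -0.883.

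The other members had no such close neighbours. ssc-miR-335 was most like ssc-miR-660 (rho 0.661), ssc-miR-500-3p (0.569) and ssc-miR-214-3p (0.563), and most opposite to the predicted miRNA novel_miR_553 (-0.670). ssc-miR-34c was most like ssc-miR-26b-5p (rho 0.686), ssc-miR-378 (0.684) and ssc-miR-7136-5p (0.668), and most opposite to novel_miR_716 (-0.709). With median-of-ratios scaling these values were 0.645, 0.497, 0.576 and -0.523 for ssc-miR-335 and 0.607, 0.463, 0.551 and -0.475 for ssc-miR-34c. ssc-miR-34a and ssc-miR-34c had a rho of 0.667 with each other over the 24 libraries, 0.378 over the 12 BF libraries and 0.601 over the 12 IMF libraries. ssc-miR-335 and ssc-miR-34a had 0.249 over all, with -0.308 in BF and 0.734 in IMF, and ssc-miR-335 and ssc-miR-34c had -0.0522 over all, with -0.580 in BF and 0.434 in IMF. After median-of-ratios scaling the values over all 24 libraries were 0.527 for ssc-miR-34a with ssc-miR-34c, 0.0296 for ssc-miR-335 with ssc-miR-34a and -0.323 for ssc-miR-335 with ssc-miR-34c.

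Other miRNAs linked to p53 went in both directions in BF. The list held 12 names, of which 8 were tested, and their median log2 fold change was 0.43 in BF-0d vs BF-8d and 0.45 in IMF-0d vs IMF-8d, beside medians of 0.15 and 0.07 over all tested miRNAs. In BF, 3 of the 8 were called against 42.8% of all tested miRNAs: 2 higher on day 8, ssc-miR-16 (1.08 ± 0.21 SE) and ssc-miR-215 (1.07 ± 0.25 SE), and 1 lower, ssc-miR-145-5p (-1.34 ± 0.21 SE), a miRNA of contractile and stromal cells. In IMF, 2 of the 8 were called against 30.5% of all, both higher on day 8, ssc-miR-192 (0.80 ± 0.16 SE) and ssc-miR-16 (0.61 ± 0.13 SE). In BF-8d vs IMF-8d 2 of the 8 were called against 37.2% of all, ssc-miR-16 lower in IMF (-0.78 ± 0.16 SE) and ssc-miR-145-5p higher (0.64 ± 0.17 SE), and after median-of-ratios scaling 0 were called lower and 1 higher. The interaction F test in limma called 0 of the 8, against 31.6% of all.

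A list of 14 other obesity-linked miRNAs was tested in full, and 9, 6 and 6 of them were called in BF-0d vs BF-8d, IMF-0d vs IMF-8d and BF-8d vs IMF-8d, against 42.8%, 30.5% and 37.2% of all tested miRNAs. In BF-0d vs BF-8d 7 were called higher on day 8, with ssc-miR-146b (3.44 ± 0.23 SE), an inflammation-linked miRNA, and ssc-miR-132 (1.74 ± 0.20 SE) in front, and 2 lower, ssc-miR-27b-3p (-0.94 ± 0.18 SE), known to restrain adipogenesis, and ssc-miR-27a (-0.62 ± 0.24 SE). In IMF-0d vs IMF-8d 5 were called higher, again with ssc-miR-146b (1.60 ± 0.19 SE) and ssc-miR-132 (1.15 ± 0.14 SE) in front, and 1 lower, ssc-miR-130a (-0.81 ± 0.25 SE). In BF-8d vs IMF-8d 5 were called lower in IMF, among them ssc-miR-378 (-1.69 ± 0.17 SE), which lies in an intron of PPARGC1B, and ssc-miR-221-3p (-1.48 ± 0.31 SE). The 1 called higher in IMF was ssc-miR-146b (1.06 ± 0.19 SE), at 62.3 ± 12.8 TPM in BF-8d and 130 ± 19.0 TPM in IMF-8d, the direction of ssc-miR-335. The median of the list there was -0.50 beside -0.28 over all, and after median-of-ratios scaling 4 were called lower and 1 higher.

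The 7 miRNAs of the miR-17-92 type, which are abundant in cycling cells, were all called lower in IMF on day 4 and on day 8, when ssc-miR-34a was called lower there too and 124 and 108 of the 430 tested miRNAs were. On day 0 and day 2, when ssc-miR-34a was not called, 1 and 3 of the 7 were called lower, beside 68 and 28 of the 430. On day 4 and day 8 their median log2 fold changes were -1.13 and -0.87, beside -0.34 and -0.28 over all tested miRNAs, and ssc-miR-106a was at -1.87 ± 0.26 (SE) and -1.40 ± 0.28 (SE). On the median-of-ratios scale the medians of day 4 and day 8 were -0.71 and -0.56. There 2 of the 7 were called on each of these days, beside 120 and 147 of all 430 tested miRNAs. From day 0 to day 8, 2 were called higher in BF, ssc-miR-106a (1.16 ± 0.28 SE) and ssc-miR-19b (0.72 ± 0.20 SE), beside 120 of the 430 tested miRNAs. After median-of-ratios scaling 1 of the 7 was called higher there. Over the same days 0 were called in IMF by limma, with a median of -0.11.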

How the data were processed

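Small RNA of 24 libraries was sequenced by the authors as single-end reads of 50 nt. They removed adapters and poor reads, mapped reads to Sscrofa11.1 by Bowtie with perfect matches, took out tRNA, rRNA, snoRNA and snRNA, named known miRNAs by miRBase and predicted others with miRDeep2. The deposited values, named TPM by the authors, are RPM: each column sums to 1000000 over 1587 entries. All values lay within 0.001 of a whole number of reads (largest deviation 0.000569). With these recovered reads, edgeR and DESeq2 called 1 of 3 members in BF-0d vs BF-8d (188 and 180 of 430 miRNAs), 2 in IMF-0d vs IMF-8d (147 and 136), 1 in BF-4d vs IMF-4d (116 and 127) and 2 in BF-8d vs IMF-8d (151 and 143). The mRNA data were not analysed here.

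Differences were tested with limma 3.58.1 in R 4.3.3 (moderated by eBayes, trend on) on log2(TPM + 1) of the 3 and 3 libraries compared, over 430 miRNAs that averaged 1 TPM or more, two-sided. Calls needed a Benjamini-Hochberg FDR under 0.05 and, except for interactions, a fold change above 1.5, as in the study's criteria. Fold changes on the log2(TPM + 1) scale understate the changes of low miRNAs. Log2 fold changes are signed so that a higher level on the later day, or in IMF, is positive. Single values were compared by exact permutation of libraries. The alternatives changed the pseudocount to 0.1, dropped the filter or raised it to 10 TPM, fitted the 24 libraries together, added the replicate number as a block, scaled by median of ratios, used edgeR 4.0.16 or DESeq2 1.42.0, or left out libraries. The fits were tested on simulated data. Other tools were Matplotlib 3.10.9, SciPy 1.17.1, pandas 2.3.3, NumPy 2.4.6 and Python 3.11.15.

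Named are the 3 members, for each the 3 miRNAs with the highest and the 1 with the lowest Spearman's rho, entries with the same seed, fixed lists with examples taken by size of change among those called, and markers of other cells. The members and lists were chosen with earlier results of these data known. ssc-miR-21-5p was named for its share of the reads. Mature sequences came from the study's list of miRNAs, and positions from exact matches to Sscrofa11.1 with the RefSeq annotation. The sources used do not say that libraries of a group are separate piglets or cultures, so p-values measure the spread between these libraries, which may be technical. Equal replicate numbers went with correlated deviations above 0.1 in all 3 pairs only in BF-0d vs IMF-0d (0.188, 0.509 and 0.205). No molecular identifiers are named, so counting errors cover counting only.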

Additional observations from a re-analysis of the deposited data

Results flagged for a closer look

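For ssc-miR-335 and ssc-miR-34a the time course differed between subcutaneous and intramuscular cells by a test of the difference itself. The change of ssc-miR-335 from day 0 to day 8 was greater in IMF by 1.39 on the log2 scale, and the F test over all 4 days gave a limma adjusted p of 0.0022. The change of ssc-miR-34a over the same days differed by -0.71 between IMF and BF, and its F test gave a limma adjusted p of 0.00899. ssc-miR-335 lost the call of the net change without the libraries numbered 2 (limma adjusted p = 0.0568) and that of the F test without those numbered 1 (0.0756) or 2 (0.138). ssc-miR-34a lost both without the libraries numbered 2 (limma adjusted p of 0.346 and 0.343) or 3 (0.156 and 0.149) and after median-of-ratios scaling (0.0627 and 0.0717).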

How the results depend on the processing

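Counts of members called are given here. In BF-0d vs BF-8d the count of 2 fell to 1 with a mean of at least 10 TPM, with the replicate block, with median-of-ratios scaling and with edgeR or DESeq2, while the calls over all miRNAs went from 184 to 105, 177, 185, 188 and 180. It was 1 to 2 when libraries were left out. In IMF-0d vs IMF-8d the count of 2 fell to 1 with no filter or a mean of at least 10 TPM, as the calls over all miRNAs fell from 131 to 70 and 76, and was 1 to 2 with libraries left out. A mean of at least 10 TPM left ssc-miR-34a as the only member tested, and so gave 1 also in BF-8d vs IMF-8d, where it had been 3, and in both interaction tests, where it had been 2, with 77 and 47 calls over all miRNAs in the interaction tests against 136 and 89. Both interaction counts were 1 with median-of-ratios scaling, while over all miRNAs the F test calls went from 136 to 122 and those of the net change from 89 to 110. With replicate numbers left out the F test called 0 to 1 and the net change from day 0 to day 8 called 0 to 2, and the latter had 1 with no filter, beside 118 over all miRNAs. One fit of all 24 libraries raised the counts to 2 in BF-2d vs BF-4d, 3 in BF-4d vs BF-8d and 1 in IMF-4d vs IMF-8d, while the calls over all 430 miRNAs rose from 26 to 104, from 13 to 81 and from 56 to 69. BF-2d vs BF-4d had 1 with a mean of at least 10 TPM, beside 22 over all miRNAs, and 0 to 1 with libraries left out, and BF-0d vs IMF-0d had 0 to 2. The replicate block changed no other count. The share of ssc-miR-34c differed by 0.455 to 0.619 percentage points, and the summed miR-34 TPM by -120 to -100.1, with replicate numbers left out.

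Signs turned only in values that were not called. ssc-miR-335 in BF-2d vs IMF-2d turned to 0.035 with median-of-ratios scaling, 0.047 with edgeR and 0.015 with DESeq2, and ran from -0.33 to 0.030 with libraries left out. In BF-4d vs IMF-4d ssc-miR-335 turned to 0.14, 0.18 and 0.14, and ssc-miR-34c to 0.087, 0.15 and 0.12, by the same 3 settings. With libraries left out, ssc-miR-34a ran from -0.0061 to 0.13 in BF-0d vs BF-2d and from -0.022 to 0.13 in IMF-2d vs IMF-4d. In IMF-0d vs IMF-2d ssc-miR-335 ran from -0.21 to 0.025 and ssc-miR-34c from -0.017 to 0.20. The causes were not tested. Depth was as low as 32 reads for ssc-miR-335 and 28 for ssc-miR-34c in a library, and for ssc-miR-335 the SD between libraries was above the counting SD in IMF-8d (4.26 against 1.06 TPM), BF-4d (2.40 against 1.10), BF-2d (2.07 against 0.846), IMF-4d (1.44 against 0.892) and IMF-0d (1.29 against 0.834).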
